A study of Mus musculus with 9 samples.

Results

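Af10, the protein encoded by Mllt10, is a partner of the histone methyltransferase DOT1L, and the comparison described here set MLL-AF9 leukemias of mice with Mllt10 deleted against those in which it was floxed but kept. It used 6 of the 9 arrays of the series, 3 per group, and covered the 34958 of 45101 probe sets that carry a single gene symbol, which stand for 18194 genes. Both groups came from primary leukemias driven by the MLL-AF9 fusion in cells homozygous for floxed Af10, on a mixed background labelled C57/BL6 X 129. The cells received a retroviral vector with the red fluorescent marker tdTomato, MSCV-IRES-tdTomato. In the Af10 floxed group the vector was empty, and in the Af10 deleted group it also expressed Cre recombinase, the enzyme that removes floxed DNA. After sorting, the cells were injected into secondary recipient mice, and bone marrow cells from the resulting leukemias were sorted again for tdTomato without growth in culture. The labels give no age of the mice and no exons of the floxed stretch. Nor do they say whether the arrays of a group come from different mice or different primary tumours, so the p-values measure only the spread between these samples, which may be technical. Only the deleted group expressed Cre, so loss of Af10 and expression of Cre cannot be told apart.

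DOT1L places methyl groups on lysine 79 of histone H3 within transcribed genes, and AF10 helps it to extend this mark. MLL fusion proteins such as MLL-AF9 recruit the DOT1L and elongation machinery to genes of blood stem cells and progenitors. Among the best known of those genes are the HoxA cluster, which encodes homeobox transcription factors, and Meis1, which encodes a DNA-binding cofactor of the Hox proteins.

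All expression values are log2(intensity + 1), differences are deleted minus floxed in log2 units with the standard error (SE) of the fitted difference, and folds are 2 to the power of that difference. Values of single arrays are given in the order of replicates 4, 5 and 6. A gene is represented by its brightest probe set, meaning the one with the highest mean over all 9 arrays of the series. It was called when the adjusted p of limma, a moderated linear model, was under 0.05, and "rose" and "fell" refer to calls. A change written "from" one set of values "to" another runs from the floxed to the deleted arrays. Because cells were measured in bulk, fewer cells of a type and less RNA per cell cannot be told apart. Kdm5d, Eif2s3y and Uty, which lie on the Y chromosome, have 9 probe sets with values of 2.97 to 4.71 over all 9 arrays of the series. That range is used as a gauge of background.

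The arrays of a group correlated at 0.980 to 0.988 and arrays of opposite groups at 0.944 to 0.972 (Pearson's r across probe sets, which are not independent and share the array design). Median intensities were 145.9 to 146.4 in the deleted and 151.5 to 152.9 in the floxed group. RNA integrity was gauged by the gap between 3' and 5' control probe sets, and the Gapdh and actin controls differed in their picture of floxed replicate 5. Its Gapdh gap was 1.03, against 0.44 to 0.62 on the other 5 arrays. Its actin gap was -0.37, inside the range of those 5 arrays, -0.41 to -0.34. Floxed replicate 5 had the lowest limma array weight of the 6, at 0.45, followed by deleted replicate 6 at 0.64. The part of either array in the results was not tested beyond leaving them out. As a check of the labelled cells, Mpo, the myeloperoxidase of primary granules, lay between 13.69 and 13.98 on all 6 arrays.

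Mllt10 itself fell in the deleted group but was still detected. Its brightest probe set was at 9.93, 9.89 and 10.19 on the deleted arrays and at 11.20, 10.49 and 11.18 on the floxed arrays. The groups did not overlap, and the difference was -0.95 (SE 0.21), a 1.93-fold fall (adjusted p = 0.0328). The other 3 probe sets fell by 1.05, 0.76 and 0.90 on the log2 scale, with adjusted p-values of 0.001, 0.0085 and 0.0219. Whether any of the 4 probe sets lies in the deleted stretch is not known here, so they check the labels only in part. The call of the brightest probe set was lost without any single one of deleted replicates 4, 5 or 6 or floxed replicates 4 or 6 (adjusted p up to 0.0974). Dot1l, the methyltransferase gene, was at 9.93, 10.06 and 9.93 in the deleted and 9.92, 9.61 and 10.18 in the floxed group, and the groups overlapped (difference 0.07, SE 0.15, adjusted p = 0.832).

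Of all 45101 probe sets 6.16% were called (3.76% fell and 2.4% rose), and of the single-symbol ones 6.36% (3.72% and 2.64%). Of the 18194 genes, 1162 were called, which is 6.39%. They comprised 630 genes that fell (3.46%) and 532 that rose (2.92%), while the median difference over all genes was 0.06. The median fall was 2.28-fold and the median rise 2.11-fold. At least 4-fold differences were reached by 135 of the falling and 73 of the rising genes, and at least 16-fold ones by 14 and 7. Every called gene had groups that did not overlap, but so did 25.9% of all genes. The falling genes had a median level of 9.47 in the floxed group, and the rising genes had one of 9.53 in the deleted group. Only 22 falling and 24 rising genes ended at background on their lower side. With deleted replicate 6 and floxed replicate 5 both left out, 427 genes were called, of which 249 fell and 178 rose, and without floxed replicate 5 alone 328 fell and 254 rose. Leaving out deleted replicate 4 gave 366 and 298, deleted replicate 5 421 and 327, and deleted replicate 6 417 and 365.

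**Figure D1:**
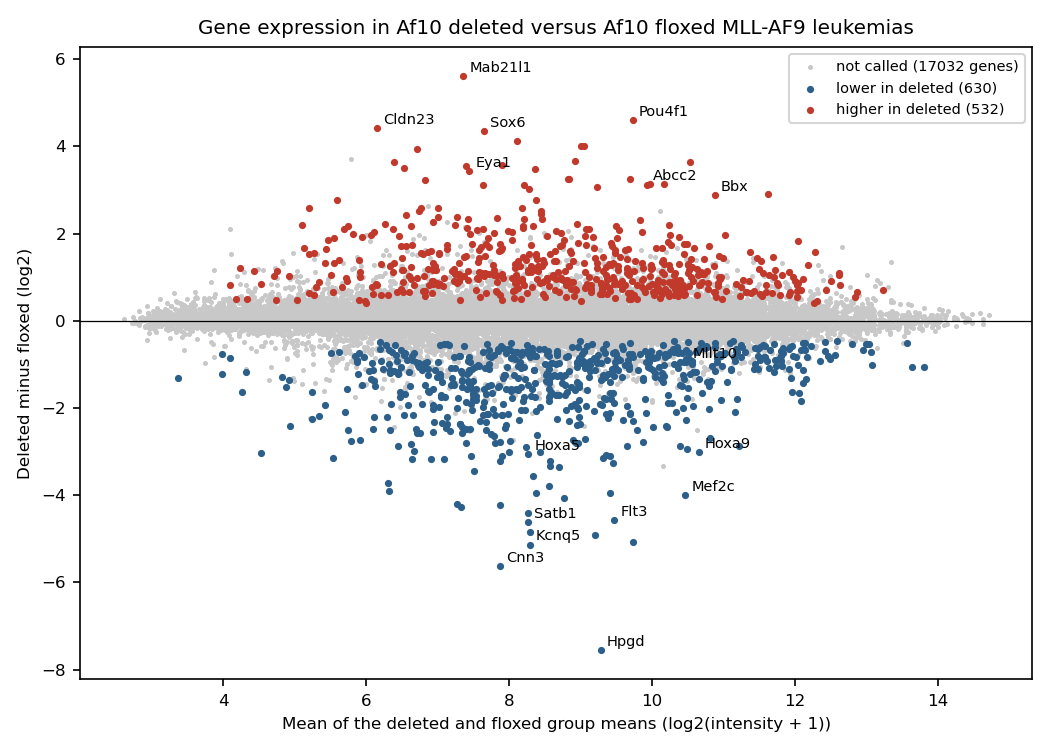
Difference between the Af10 deleted and Af10 floxed groups (log2, vertical axis) against the mean of both group means (log2(intensity + 1), horizontal axis), with 1 point per gene. Blue points are the 630 genes that fell, red points the 532 that rose and grey points the genes not called; Hpgd stands lowest and Mab21l1 highest among the called genes.

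The 12 largest falls and the 12 largest rises among genes with a mean of at least 8 in the brighter group are described next. The fall of Hpgd was the largest of all called genes. It encodes 15-hydroxyprostaglandin dehydrogenase, which inactivates prostaglandins. Hpgd was at 6.62, 4.66 and 5.23 on the deleted and 12.93, 13.09 and 13.17 on the floxed arrays. The lowest deleted value was within the background range, whereas the floxed arrays were among the bright end of the scale. The difference was -7.56 (SE 0.60), a 189-fold fall (adjusted p = 0.000245).

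Cnn3, a calponin that binds actin, was at 4.70, 5.81 and 4.66 in the deleted and 10.87, 11.03 and 10.17 in the floxed group, a 49.7-fold fall (adjusted p = 0.000183). Kcnq5, a voltage-gated potassium channel, was at 5.92, 5.30 and 5.96 against 10.83, 11.03 and 10.72, a 35.0-fold fall. All 3 probe sets of Kcnq5 fell. The desmosomal plaque gene Dsp was at 5.56, 7.79 and 6.88 against 11.53, 11.65 and 11.77, and its deleted arrays spread over more than its floxed ones (30.0-fold, adjusted p = 0.00379). Ly6k, a member of the Ly6 family of surface proteins, was at 5.64, 6.11 and 5.88 against 11.07, 10.51 and 10.58 (28.7-fold, adjusted p = 2.2e-05). Only 1 of the 2 Ly6k probe sets fell, and their mean differed by -2.55 in place of -4.84. The glycosyltransferase gene B3gnt5 was at 6.17, 5.57 and 5.56 against 9.68, 10.36 and 9.92 (18.7-fold). Each of these genes kept its call in every alternative setting that was tried.

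Several of the largest falls were in genes of chromatin and transcription. The nucleosome-binding gene Hmgn3 was at 6.92, 6.96 and 7.69 in the deleted and 12.14, 12.57 and 12.09 in the floxed group (33.7-fold, adjusted p = 0.00012). Satb1, a chromatin organiser best known in T cells, was at 7.0, 5.53 and 5.32 against 10.66, 11.30 and 9.76 (24.6-fold), and all 5 of its probe sets fell. Hnf4a, a nuclear receptor best known in liver, was at 5.68, 5.86 and 6.65 against 10.47, 11.02 and 9.94 (21.3-fold), and all 4 of its probe sets fell. Npas3, a transcription factor best known in neurons, was at 5.38, 4.92 and 5.29 against 9.48, 10.20 and 8.70 (19.2-fold). All of them were far apart between groups, with the closest arrays of opposite groups separated by more than any pair within a group.

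The surface receptor gene Flt3, which encodes the receptor tyrosine kinase for FLT3 ligand on early progenitors, was at 7.03, 6.98 and 7.57 against 12.15, 11.77 and 11.35. This was a difference of -4.56 (SE 0.26), a 23.6-fold fall (adjusted p = 4.7e-05). H2-Ob, a subunit of the H2-O protein that modulates peptide loading onto MHC class II, was at 5.58, 5.23 and 4.69 against 8.0, 10.32 and 9.81 (18.5-fold, adjusted p = 0.00305).

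The largest rise was that of Mab21l1, a developmental gene of eye and head, which was at 11.29, 8.21 and 11.01 in the deleted and 4.61, 4.44 and 4.59 in the floxed group. Floxed values lay in the background range, deleted replicate 5 was lower than the other deleted arrays, and the rise was at least 44.0-fold against the top of that range (fitted difference 5.62, SE 0.67, adjusted p = 0.00205). Pou4f1, a POU-domain transcription factor of sensory neurons, was at 12.12, 11.69 and 12.28 against 7.42, 7.47 and 7.41 (24.2-fold, adjusted p = 2.4e-05). Sox6, an HMG-box transcription factor with roles in red cells and cartilage, was at 9.86, 9.40 and 10.22 against 5.18, 5.36 and 5.85 (20.5-fold), and all 4 of its probe sets rose. Smad1, which carries BMP signals to the nucleus, was at 10.68, 10.81 and 11.64 against 6.70, 7.26 and 7.17 (16.0-fold, adjusted p = 0.0113). The call of Smad1 was lost when deleted replicate 6 and floxed replicate 5 were both left out (adjusted p = 0.0954).

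Rises also came from genes of cell surface and matrix. The claudin gene Cldn23 was at 8.78, 7.96 and 8.37 against 4.0, 4.09 and 3.74, and its floxed values lay in the background range, so its rise was at least 12.6-fold against the top of that range. Perp, a desmosome-associated membrane protein and a target of p53, was at 7.48, 8.40 and 8.77 against 5.35, 4.43 and 3.91 (12.5-fold). Col5a3, a chain of type V collagen, was at 10.83, 11.03 and 11.14 against 7.59, 6.51 and 6.90 (16.0-fold). Tfpi, the inhibitor of the tissue factor pathway of coagulation, was at 9.21, 8.91 and 7.93 against 4.48, 4.78 and 4.99 (15.3-fold), and all 4 of its probe sets rose. Each of the 4 genes had groups separated by at least 2 log2 units between the closest arrays.

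The remaining large rises were of mixed kind. Ear3, an eosinophil-associated ribonuclease gene whose near-identical relatives make its value uncertain, was at 10.22, 11.08 and 9.22 against 6.04, 5.51 and 6.61 (17.4-fold). Tanc1, a scaffold gene of synapses, was at 10.96, 10.35 and 10.96 against 6.66, 6.93 and 7.70 (12.6-fold). Only 1 of the 2 Tanc1 probe sets rose, and their mean differed by 1.85 in place of 3.66. Slc32a1, the vesicular transporter of inhibitory transmitters, was at 12.35, 12.22 and 12.49 against 9.54, 7.80 and 8.82 (12.4-fold), and all 4 of its probe sets rose. Mansc1 was at 10.09, 9.49 and 9.48 against 6.24, 5.65 and 6.42 (adjusted p = 0.000971). Apart from Smad1, each of the 24 genes kept its call in every setting that included it.

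**Figure D2:**
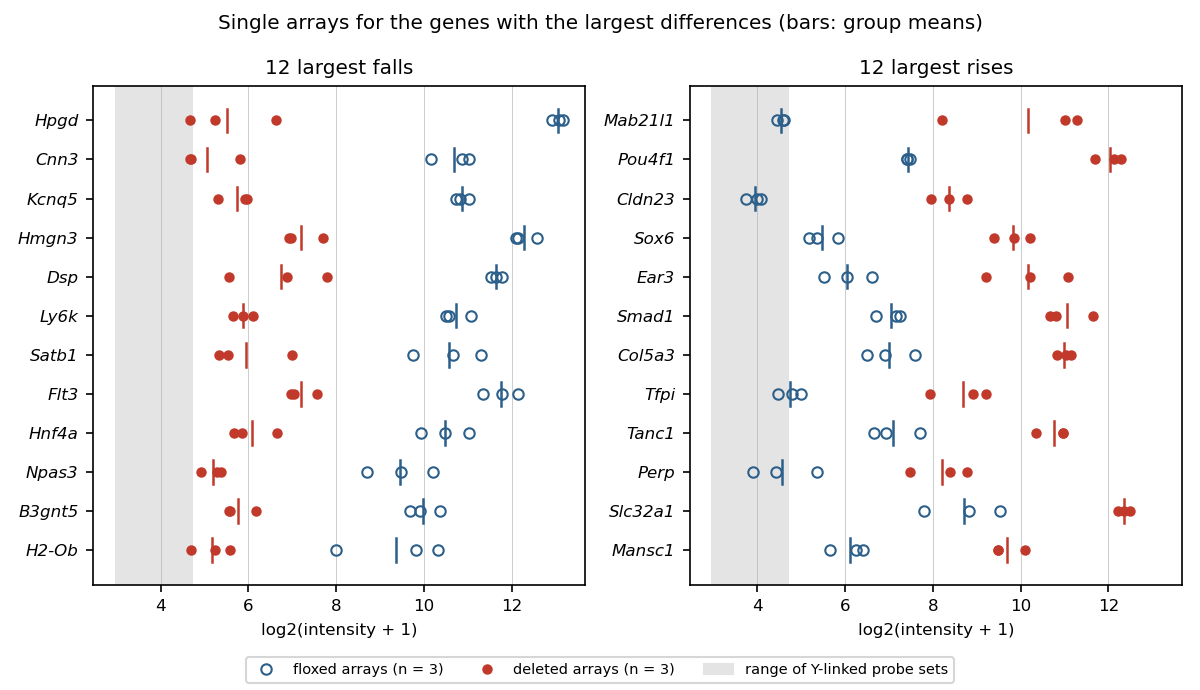
Level on each of the 6 arrays (log2(intensity + 1), horizontal axis) for the 12 genes with the largest falls (left) and the 12 with the largest rises (right) after Af10 deletion; filled red circles are deleted arrays, open blue circles floxed arrays, short bars group means, and the grey band spans the Y-linked probe sets. In no gene do the groups overlap, and Hpgd shows the widest gap.

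The upstream sequence of 4 of these or of the HoxA genes is shown to let the start regions of strongly falling genes (Hpgd, Hoxa5, Flt3) be read beside that of a strongly rising one (Pou4f1). Each run is the 250 bases before the start of the gene in RefSeq (GRCm38.p6), read 5′ to 3′ on the gene's strand, with the dinucleotide CG, the site of DNA methylation, in capitals. Hpgd lies at chr8:56294302-56294551 (plus strand), Hoxa5 at chr6:52204588-52204837 (minus), Flt3 at chr5:147400490-147400739 (minus) and Pou4f1 at chr14:104468000-104468249 (minus).
Hpgd: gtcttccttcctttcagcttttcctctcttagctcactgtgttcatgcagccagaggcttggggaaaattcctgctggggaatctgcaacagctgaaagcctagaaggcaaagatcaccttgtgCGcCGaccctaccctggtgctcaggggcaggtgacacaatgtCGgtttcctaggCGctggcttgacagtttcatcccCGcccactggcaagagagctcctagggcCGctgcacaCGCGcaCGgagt
Hoxa5: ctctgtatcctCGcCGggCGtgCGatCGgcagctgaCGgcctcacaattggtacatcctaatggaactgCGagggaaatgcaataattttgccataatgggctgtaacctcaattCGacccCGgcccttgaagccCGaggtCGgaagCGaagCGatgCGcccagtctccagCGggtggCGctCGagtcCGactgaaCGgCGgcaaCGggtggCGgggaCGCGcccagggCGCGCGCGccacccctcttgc
Flt3: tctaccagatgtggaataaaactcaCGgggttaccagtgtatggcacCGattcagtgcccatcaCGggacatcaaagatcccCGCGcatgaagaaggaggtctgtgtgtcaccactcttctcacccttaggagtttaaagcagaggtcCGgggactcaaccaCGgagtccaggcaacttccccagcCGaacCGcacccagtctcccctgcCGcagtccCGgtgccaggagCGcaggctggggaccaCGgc
Pou4f1: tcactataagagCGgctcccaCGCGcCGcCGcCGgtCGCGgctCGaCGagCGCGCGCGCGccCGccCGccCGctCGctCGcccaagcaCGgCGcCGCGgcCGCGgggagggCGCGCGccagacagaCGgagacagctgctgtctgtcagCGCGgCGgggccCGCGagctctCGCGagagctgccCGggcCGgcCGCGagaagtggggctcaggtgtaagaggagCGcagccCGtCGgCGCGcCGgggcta

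CG was counted on 1 strand, since it reads the same on both. The windows held 9 CG in Hpgd, 28 in Hoxa5, 13 in Flt3 and 47 in Pou4f1. Over all 32851 promoter windows of this table the median was 6 and the middle part of the windows, between the quartiles, held 2 to 16; 92.1% had at least 1. Hoxa5 stood above 92.4% of windows and Pou4f1 above 99.8%, while Hpgd and Flt3 were nearer the middle, above 59.7% and 68.5%. These counts describe 4 chosen genes and no DNA methylation was measured.

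The HoxA cluster was lower along most of its measured length. Of 9 measured genes 7 fell and none rose, against 3.46% of all genes that fell, with a median difference of -2.26 against 0.06 over all genes. That share of all genes, and the 2.92% that rose, stand beside the counts of every list below. All lists were chosen with earlier results of these data known, so their shares are not independent evidence. Hoxa5 was at 6.66, 6.61 and 6.94 in the deleted and 9.98, 9.66 and 9.74 in the floxed group, so the arrays of each group lay close together (8.31-fold, adjusted p = 2.3e-05). Hoxa7 was at 8.58, 8.38 and 8.03 against 10.87, 9.71 and 10.20 (3.81-fold). Hoxa4 was at 4.96, 5.06 and 5.02 against 7.40, 6.59 and 7.65 (4.59-fold), and Hoxa2 at 4.42, 4.05 and 3.86 against 5.93, 6.32 and 6.84 (at least 3.14-fold against the top of the background range). The deleted arrays of Hoxa2 lay within the background range, and with a pseudocount of 32 in place of 1 its difference was -1.24 in place of -2.26. Hoxa11 was dim in both groups and fell 1.74-fold, with a difference of -0.80 that was -0.52 with a pseudocount of 32. Hoxa13, the last gene of the cluster, was at 5.67, 5.65 and 5.73 against 5.60, 5.60 and 5.64 and was not called (adjusted p = 0.743).

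Hoxa9 and Hoxa10 divided the deleted arrays. Hoxa9 was at 10.20, 9.90 and 7.35 in the deleted and 12.52, 11.75 and 12.21 in the floxed group (8.07-fold, difference -3.01, SE 0.63, adjusted p = 0.0264). Its other probe set, brighter on every array of these groups, showed the same order of the deleted arrays, at 10.88, 10.54 and 7.96 against 12.86, 13.07 and 12.73. Hoxa10 was at 8.75, 8.84 and 5.90 against 10.85, 11.17 and 10.67 (8.38-fold, difference -3.07, adjusted p = 0.0296). Deleted replicate 6 was thus the lowest array for both genes, and the other deleted arrays still lay below all floxed ones. Without deleted replicate 6 the difference was -2.11 for Hoxa9 and -2.10 for Hoxa10, with smaller adjusted p-values of 0.00273 and 0.00106. The second probe set of Hoxa10 lay within background in both groups, and the mean of both probe sets differed by -1.68. The calls were lost without any single one of the 3 floxed arrays (adjusted p up to 0.0693 for Hoxa9 and 0.111 for Hoxa10). They were also lost in the fit on the 6 arrays alone (adjusted p = 0.0774 for Hoxa9 and 0.0826 for Hoxa10). With the replicate number as a block, the adjusted p-values were 0.0807 and 0.0657.

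Hoxa3, named here after its values were seen, showed the opposite order among the deleted arrays on its brightest probe set. That probe set was at 8.57, 8.30 and 11.24 against 11.67, 11.85 and 12.12 and was not called (difference -2.51, adjusted p = 0.058). Without deleted replicate 6 its difference was -3.44 and it was called (adjusted p = 0.000348). The other 3 probe sets of Hoxa3 were called as lower, and deleted replicate 6 did not stand out on them. One of them was at 4.76, 4.46 and 4.63 against 8.39, 9.41 and 8.89. Leaving out deleted replicate 6 and floxed replicate 5 together gave 8 called HoxA genes in place of 7, and the fit on the 6 arrays alone gave 5, as did leaving out any single floxed array.

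The Hox cofactors of the TALE class fell in 2 of 10 measured members, and none rose (median difference 0.06). Pbx3, which binds DNA together with Hox proteins, was at 9.80, 9.29 and 9.22 in the deleted and 11.69, 11.24 and 11.38 in the floxed group, a 4.01-fold fall seen on both of its probe sets (adjusted p = 0.000632). Meis1 was at 8.75, 9.42 and 8.35 against 9.73, 10.53 and 10.02, a 2.39-fold fall (adjusted p = 0.0383). The call of Meis1 was lost without deleted replicate 4, deleted replicate 6, floxed replicate 5 or floxed replicate 6 (adjusted p up to 0.132). It was also lost in the fit on the 6 arrays alone (adjusted p = 0.087). With both deleted replicate 6 and floxed replicate 5 left out, its difference was -0.79 in place of -1.25. Its other 2 probe sets were lower by 1.32 and 0.77 on the log2 scale and were not called. Tgif1, a TALE gene named after its values were seen, was at 7.20, 6.03 and 7.11 against 9.32, 8.77 and 7.55 and was not called (adjusted p = 0.056). It has 1 probe set, and the fit with 1 value per gene left its difference at -1.76 (adjusted p = 0.0473).

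Among 20 measured targets of MLL fusions outside the HoxA cluster 8 fell and 1 rose, with a median difference of -0.97. The list was chosen with results of these arrays known, so its direction is not independent evidence. Without deleted replicate 6, and likewise without floxed replicate 5, 5 members fell and 1 rose. Meis1 and Flt3, described above, are among the 8. Mef2c, a MADS-box transcription factor of myeloid progenitors, was at 8.12, 8.91 and 8.37 in the deleted and 12.43, 12.59 and 12.38 in the floxed group (16.0-fold, adjusted p = 0.000201), and all 5 of its probe sets fell. Bcl2, which encodes the inhibitor of cell death, was at 9.24, 9.02 and 9.75 against 11.48, 11.84 and 11.52 (4.84-fold), and all 5 of its probe sets fell. Jmjd1c, a JmjC-domain gene, was at 10, 9.86 and 9.51 against 11.73, 12.22 and 11.51 (4.09-fold). Tcf4, an E-protein transcription factor, was at 10.37, 11.55 and 11.59 against 13.09, 12.95 and 12.97 (3.56-fold). Jmjd1c and Tcf4 were named after their values were seen.

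The other falling targets changed less. Cdk6, the kinase that drives cells through G1, was at 12.27, 11.83 and 12.07 against 12.82, 13.11 and 12.87 (1.83-fold), and all 3 of its probe sets fell. Its call was lost without deleted replicate 5 or 6 or floxed replicate 5 (adjusted p up to 0.0877). Bmi1, a Polycomb gene of stem cell renewal, was at 9.61, 9.31 and 9.32 against 10.65, 10.80 and 9.95 (2.08-fold), and its call was lost without any deleted array or floxed replicate 4 or 5 (adjusted p up to 0.106). Myb, another regulator of progenitors, was bright and level at 13.24, 13.13 and 13.22 against 13.25, 13.12 and 13.25 (adjusted p = 0.965). Zeb2 was at 11.25, 11.23 and 11.31 against 10.29, 10.99 and 10.78 and was not called (adjusted p = 0.0876).

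Eya1 was the target that moved the other way. It encodes a phosphatase and transcriptional coactivator of organ development, and was at 9.17, 9.03 and 9.28 in the deleted against 5.82, 5.65 and 5.69 in the floxed group (10.8-fold rise, adjusted p = 9.4e-06). All 3 of its probe sets rose. Of 11 measured genes of the Eya and Dach families and the sine oculis homeobox genes it was the only one called (median difference 0.08).

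**Figure D3:**
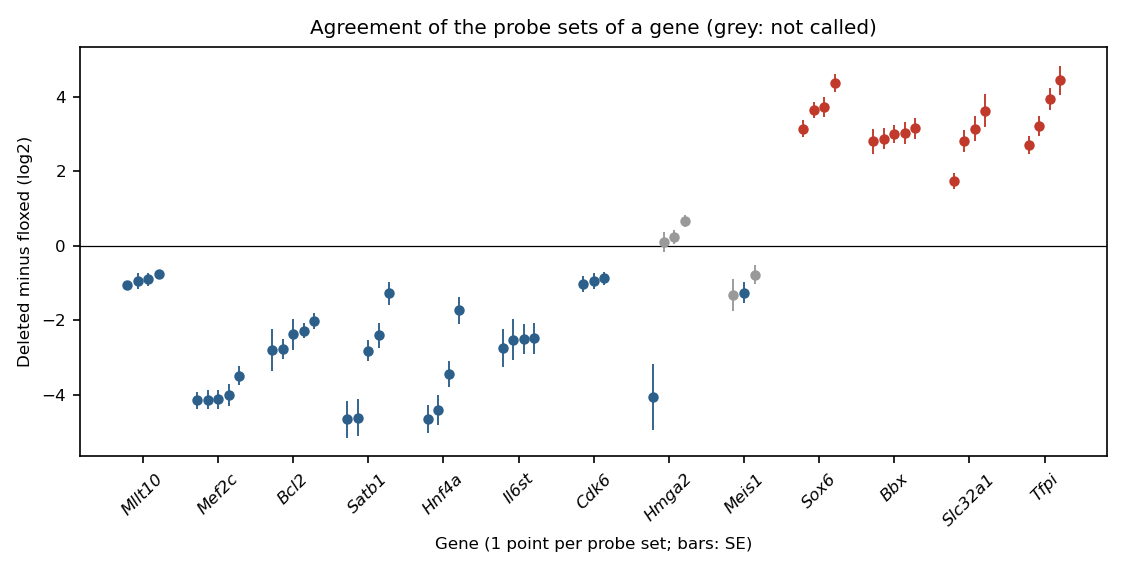
Difference between deleted and floxed groups (log2, vertical axis) for each probe set of 13 named genes, with SE bars; coloured points were called and grey points were not. Every probe set moved the same way in Mef2c, Bcl2, Satb1 and Sox6, whereas Hmga2 had 1 of 4 probe sets called.

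Of 23 measured genes of the DOT1L and elongation complexes 2 fell, Mllt10 and Aff3, and none rose (median difference 0.01). That was 8.7%, against 3.46% of all genes that fell. Aff3, a subunit of elongation complexes, was at 7.37, 6.91 and 6.74 in the deleted and 8.86, 10.40 and 8.55 in the floxed group (4.81-fold, adjusted p = 0.0166). Only 1 of its 2 probe sets was called, their mean differed by -1.33 in place of -2.26, and the call was lost without deleted replicate 5 or 6 (adjusted p up to 0.0526). Of 32 Polycomb and trithorax genes 3 fell (9.38%), namely Bmi1, Pcgf6 and Jarid2, and none rose (median difference -0.03). Pcgf6 fell 1.74-fold on 1 of its 3 probe sets, whose mean differed by -0.22 in place of -0.80 and was not called (adjusted p = 0.419). It also lost its call without deleted replicate 4, deleted replicate 6 or floxed replicate 5 (adjusted p up to 0.0549). Jarid2, a cofactor of the Polycomb complex PRC2, fell 1.64-fold, and lost its call with averaged probe sets (adjusted p = 0.0574) and without deleted replicate 4 or 5 or any floxed array (adjusted p up to 0.128). With the 6 arrays alone, or without both deleted replicate 6 and floxed replicate 5, Bmi1 and Jarid2 lost their calls as well.

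Of 7 measured high mobility group and Satb genes 3 fell, Hmgn3, Satb1 and Hmga2, and none rose (median difference -1.08). Hmgn3 and Satb1 are among the 12 largest falls, and the list was chosen with results of these arrays known. Its share is therefore not independent evidence. The probe set of Hmga2 that represents it was at 4.50, 8.26 and 7.45 against 10.99, 10.44 and 10.99 (16.8-fold, adjusted p = 0.0306). The deleted arrays spread widely, and the call was lost without deleted replicate 6 or any floxed array (adjusted p up to 0.0869). The other 3 probe sets of Hmga2 were higher by 0.10, 0.23 and 0.66, none of them called, so the probe sets disagree. Their mean differed by -0.77 in place of -4.07 (adjusted p = 0.112).

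Mef2 factors and class IIa histone deacetylases, which bind each other, fell in 3 of 8 members with none rising (median difference -0.55). Beside Mef2c these were Hdac9, at 7.43, 7.98 and 7.94 against 8.44, 8.93 and 9.36 (2.19-fold), and Hdac7, at 8.64, 8.31 and 8.67 against 9.57, 9.25 and 9.40 (1.82-fold). Hdac9 lost its call without any deleted array or floxed replicate 5 or 6 (adjusted p up to 0.0937), and Hdac7 without deleted replicate 4, deleted replicate 5, floxed replicate 4 or floxed replicate 6 (adjusted p up to 0.0726).

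**Figure D4:**
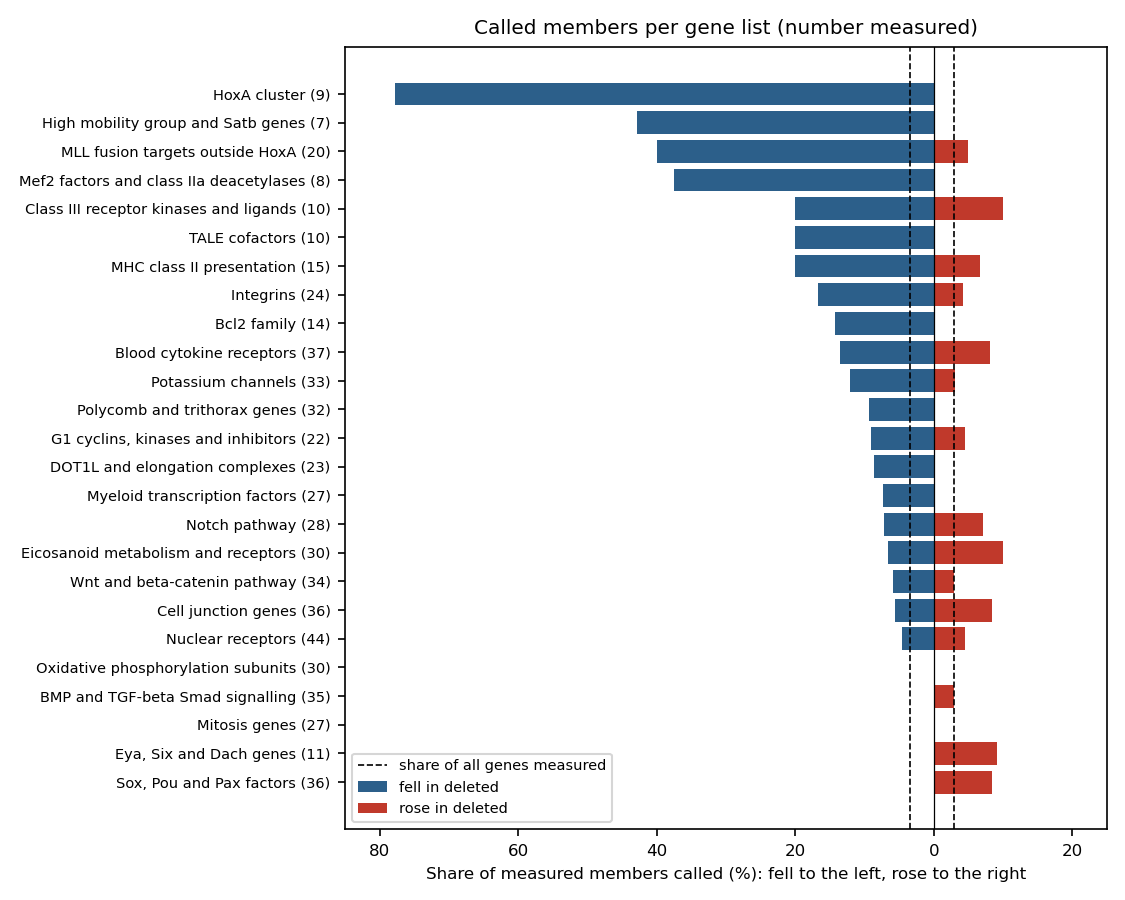
Share of the measured members of each of 25 gene lists (number measured in brackets) that fell (blue, to the left) or rose (red, to the right) in the deleted group, in percent; dashed lines mark the shares among all genes, 3.46% fell and 2.92% rose. The HoxA cluster has the largest falling share, with 7 of 9 members. The lists were chosen with earlier results of these data known.

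Among 36 measured Sox, Pou and Pax genes 3 rose and none fell (median difference 0.12), against 2.92% of all genes that rose. With the 6 arrays alone, and likewise without floxed replicate 5, 1 fell and 2 rose, and with averaged probe sets 2 fell and 3 rose. Beside Pou4f1 and Sox6, Sox13 rose 1.95-fold, from 8.42, 7.71 and 8.40 to 9.36, 8.92 and 9.13, and lost its call without any deleted array or floxed replicate 5 (adjusted p up to 0.119). Pax8, named after its values were seen, was at 10.42, 11.03 and 9.65 against 9.12, 8.18 and 9.66, and its groups overlapped (adjusted p = 0.0848). Of 44 nuclear receptors 2 fell and 2 rose (median difference 0.12). Beside Hnf4a, Nr0b2 fell 1.72-fold, Esrra rose 1.77-fold and Rxra rose 1.70-fold. On averaged probe sets the difference of Esrra was 0.45 in place of 0.82, and that of Rxra was 0.41 in place of 0.77 and not called (adjusted p = 0.0885). Nr0b2 and Rxra each lost the call without deleted replicate 5 (adjusted p = 0.0509 and 0.0545), and Esrra without deleted replicate 5 or 6 or floxed replicate 5 (adjusted p up to 0.0744).

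Of 27 myeloid and blood transcription factors 2 fell, and none rose (median difference 0.00). Irf8, a factor of the monocyte and dendritic lineages, was at 9.28, 9.69 and 9.07 in the deleted and 11.27, 10.78 and 11.62 in the floxed group (3.67-fold, adjusted p = 0.0174). Gfi1b, a repressor of the red cell and megakaryocyte lineages, was at 7.07, 7.19 and 6.90 against 7.72, 8.47 and 8.03 (2.03-fold, adjusted p = 0.0185). Both lost the call without deleted replicate 4 or 6 (adjusted p up to 0.0596 and 0.0572). The master regulators Cebpa and Spi1, named after their values were seen, were not called. Cebpa was at 11.42, 10.78 and 11.51 against 10.63, 10.40 and 9.99 (adjusted p = 0.0585), and Spi1 at 12.17, 12.37 and 12.25 against 11.78, 10.85 and 11.84 (adjusted p = 0.108). Cebpa has 1 probe set, so the fit with 1 value per gene left its difference at 0.90 but put it past the threshold (adjusted p = 0.0475). For both genes all deleted arrays lay above all floxed ones, as was the case for 15.1% of all genes.

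Among the class III receptor kinases and their ligands 2 of 10 measured genes fell, Flt3 and Kit, and 1 rose, Pdgfa (median difference 0.03). Kit, the receptor of stem cell factor, was at 8.20, 8.11 and 8.34 against 8.97, 9.09 and 9.47 (1.95-fold, adjusted p = 0.0464). Only 1 of the 2 Kit probe sets fell, and their mean was not called (adjusted p = 0.0747). Pdgfa, a growth factor ligand, rose 1.43-fold (adjusted p = 0.0476). Kit and Pdgfa lost their calls without any single one of the 6 arrays (adjusted p up to 0.121 and 0.135). Csf1r, the receptor of macrophage colony-stimulating factor, was at 11.99, 12.36 and 11.40 against 11.24, 12.03 and 12.42, and the groups overlapped (adjusted p = 0.979).

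Blood cytokine receptors moved both ways, with 5 of 37 falling and 3 rising (median difference 0.09). Il6st, the gp130 subunit shared by receptors of the interleukin-6 family, was at 8.86, 7.97 and 8.82 against 10.65, 11.52 and 10.96 (5.63-fold), and all 4 of its probe sets fell. Il31ra, a receptor chain of the same family, was at 6.71, 6.84 and 6.83 against 9.26, 10.13 and 9.68 (7.46-fold, adjusted p = 0.000612). Il2rb, a chain of the interleukin-2 and interleukin-15 receptors, was at 7.29, 7.44 and 7.91 against 5.77, 5.88 and 6.30 (2.95-fold rise). When deleted replicate 6 and floxed replicate 5 were both left out, the calls of Il6st and Il2rb were lost (adjusted p = 0.0678 and 0.058).

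The receptor of interleukin-7, Il7r, fell 5.56-fold, from 7.57, 10.29 and 8.06 to 6.31, 5.67 and 6.52. Floxed replicate 5 was by far its highest array, without it the difference was -1.65 in place of -2.48, and the call was lost without any deleted array or floxed replicate 6 (adjusted p up to 0.125). Only 1 of the 2 Il7r probe sets fell, and their mean was not called (adjusted p = 0.0678). The other 4 called receptors, named after their values were seen, were Il10rb (1.64-fold lower), Ifnar2 (1.53-fold lower), Il15ra (1.57-fold higher) and Il12rb2 (1.97-fold higher). Each of the 4 lost its call without any of 5 arrays, with adjusted p up to 0.162, 0.158, 0.103 and 0.0777. The array whose removal kept the call was floxed replicate 4 for Il10rb and Ifnar2, deleted replicate 6 for Il15ra and floxed replicate 6 for Il12rb2. With deleted replicate 6 and floxed replicate 5 both left out, the differences of Il10rb and Ifnar2 were -0.47 and -0.39 in place of -0.71 and -0.61. The mean of the probe sets gave -1.19 for Il10rb, and for Ifnar2 it gave -0.44 and no call (adjusted p = 0.162). Csf2ra, a chain of the receptor for granulocyte-macrophage colony-stimulating factor, was at 12.92, 12.87 and 12.78 against 12.04, 11.33 and 12.40 and was not called (adjusted p = 0.052).

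Of 14 measured Bcl2 family genes 2 fell, Bcl2 and Bid, and none rose (median difference 0.05). Bid, which promotes cell death and so acts against Bcl2, was at 8.98, 9.09 and 7.97 against 10.81, 10.63 and 10.44 (3.86-fold, adjusted p = 0.00446). Both calls were kept in every setting tried.

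Eicosanoid genes, which make, break down and sense prostaglandins and leukotrienes, fell in 2 and rose in 3 of 30 measured members (median difference 0.06). Beside Hpgd, Ptgr1, a reductase of prostaglandins and leukotrienes, was at 11.62, 11.62 and 11.38 against 12.40, 12.61 and 12.62 (2.01-fold fall, adjusted p = 0.00465), and lost its call with deleted replicate 6 and floxed replicate 5 both left out (adjusted p = 0.0507). The rising members were the prostacyclin receptor Ptgir, the prostaglandin E2 receptor Ptger4 and the leukotriene-forming enzyme Alox5. Ptgir was at 9.73, 9.66 and 9.65 against 8.10, 7.31 and 7.47 (4.14-fold, adjusted p = 0.000784). Ptger4 was at 8.97, 9.68 and 9.23 against 5.90, 7.34 and 8.09 (4.54-fold), and Alox5 at 9.85, 10.42 and 9.56 against 8.72, 7.32 and 8.57 (3.33-fold). Ptger4 lost its call without any deleted array or floxed replicate 5 (adjusted p up to 0.103), and Alox5 without deleted replicate 4 or 5 or floxed replicate 5 (adjusted p up to 0.0953).

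Genes of cell junctions fell in 2 and rose in 3 of 36 measured members (median difference 0.02). Beside Dsp, the plaque protein plakoglobin, Jup, named after its values were seen, was at 6.69, 6.42 and 7.40 against 8.49, 8.14 and 8.93 (3.22-fold fall). Beside Cldn23 and Perp, the tight junction scaffold Tjp1 rose 11.4-fold. Its deleted arrays were at 7.42, 7.12 and 10.32 and its floxed arrays at 5.02, 4.66 and 4.66, so deleted replicate 6 was the high one, and the call was lost without floxed replicate 5 (adjusted p = 0.0803).

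Integrins, the receptors for matrix and for other cells, fell in 4 and rose in 1 of 24 members (median difference 0.02). Itgb7, part of a gut homing receptor, was at 9.27, 8.70 and 9.0 against 11.04, 11.74 and 11.50 (5.42-fold, adjusted p = 0.00254). Itgb3, the beta-3 chain found on platelets and on leukemic progenitors, was at 7.78, 8.01 and 7.53 against 9.61, 9.96 and 9.87 (4.12-fold, adjusted p = 0.000316). Only 1 of the 2 Itgb3 probe sets fell. Itgb5, named after its values were seen, rose from 9.75, 9.77 and 10.07 to 10.95, 11.14 and 11.38 (2.45-fold).

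The alpha chains of the list were less stable. Itga1, a collagen receptor chain, was at 6.74, 6.43 and 6.04 against 9.44, 10.82 and 10.82 (15.5-fold fall), and lost its call without any deleted array or floxed replicate 5 or 6 (adjusted p up to 0.117). Itga6, a laminin receptor chain, was at 8.29, 7.58 and 8.10 against 9.60, 9.93 and 9.32 (3.09-fold fall), and lost its call without deleted replicate 5 or floxed replicate 5 (adjusted p up to 0.076).

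Potassium channel genes fell in 4 and rose in 1 of 33 members (median difference 0.08). Beside Kcnq5, the voltage-gated channel Kcna3 was at 6.25, 5.70 and 5.70 in the deleted and 8.33, 8.20 and 8.16 in the floxed group (5.09-fold). The calcium-activated channel Kcnn4 was at 8.75, 8.32 and 8.80 against 10.38, 10.32 and 10.12 (3.14-fold). Averaged probe sets gave -1.07 in place of -1.65, and it lost its call with deleted replicate 6 and floxed replicate 5 both left out (adjusted p = 0.0608). Kcne3, an accessory subunit, fell 3.37-fold and lost its call without deleted replicate 5 or floxed replicate 5 or 6 (adjusted p up to 0.101). Kcnj2, named after its values were seen, rose 2.26-fold and lost its call without deleted replicate 4, deleted replicate 5, floxed replicate 4 or floxed replicate 5 (adjusted p up to 0.136).

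In the signalling lists 2.86% of BMP and TGF-beta, 8.82% of Wnt and 14.3% of Notch pathway genes were called, against 6.39% of all genes. Of 35 BMP and TGF-beta genes 1 rose, Smad1, and none fell (median difference 0.16). Of 34 Wnt pathway genes 2 fell and 1 rose (median difference 0.11). The Wnt ligand gene Wnt10b was at 6.98, 6.27 and 6.93 against 8.26, 8.19 and 7.89 (2.62-fold fall), and lost its call with deleted replicate 6 and floxed replicate 5 both left out (adjusted p = 0.0541). Tcf7l2, a nuclear effector of the pathway, fell 4.43-fold, and Lgr4, a receptor of R-spondins, rose 1.87-fold. Both lost their calls without any single one of the 6 arrays (adjusted p up to 0.126 and 0.129). Only 1 of the 2 Lgr4 probe sets rose, and their mean was not called (adjusted p = 0.0678).

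Of 28 Notch pathway genes 2 fell and 2 rose (median difference 0.01). Hes6, a bHLH factor, was at 11.47, 11.37 and 11.53 against 12.35, 11.98 and 12.15 (1.63-fold fall). Rbpj, the DNA-binding partner of Notch, was at 9.04, 9.04 and 8.78 against 9.62, 10.77 and 9.87 (2.20-fold fall), with floxed replicate 5 the highest array. Leaving out both deleted replicate 6 and floxed replicate 5, the difference of Rbpj was -0.71 in place of -1.14, and its call was lost without any deleted array or floxed replicate 6 (adjusted p up to 0.105). Psen2 rose 1.94-fold and Maml2 1.70-fold, and with averaged probe sets the difference of Psen2 was 0.50 in place of 0.96. Psen2 lost its call without deleted replicate 5 or 6 or floxed replicate 5 (adjusted p up to 0.0632), and Maml2 without any deleted array or floxed replicate 5 or 6 (adjusted p up to 0.111).

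Genes of MHC class II presentation fell in 3 and rose in 1 of 15 members (median difference -0.23), and those that fell were all accessory to the classical molecules. H2-Oa, the partner chain of H2-Ob, was at 7.87, 7.80 and 8.20 against 9.57, 9.96 and 10.28 (3.94-fold, adjusted p = 0.00108). H2-DMa, a chain of the peptide exchange factor, was at 10.14, 10.34 and 9.29 against 11.09, 11.02 and 11.35 (2.34-fold), and lost its call without deleted replicate 4 or any floxed array (adjusted p up to 0.0747). The classical chain H2-Aa was at 9.14, 8.63 and 8.97 against 8.48, 9.12 and 9.71 (adjusted p = 0.748), and the invariant chain Cd74 at 9.93, 8.56 and 9.85 against 8.41, 9.79 and 10.82 (adjusted p = 0.88). For both genes the groups overlapped. The costimulatory gene Cd80 rose 2.19-fold on 1 of its 4 probe sets, whose mean differed by 0.54 in place of 1.13 and was not called (adjusted p = 0.176). It also lost its call without any single one of the 6 arrays (adjusted p up to 0.101).

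Of 22 genes of G1 control 2 fell, Cdk6 and Ccnd1, and 1 rose, Cdkn2a (median difference 0.06). Ccnd1, cyclin D1, was at 8.25, 8.10 and 7.57 against 9.75, 9.47 and 8.50 (2.41-fold fall, adjusted p = 0.043), and lost its call without any deleted array or floxed replicate 4 or 5 (adjusted p up to 0.15). Only 1 of the 3 Ccnd1 probe sets fell, and their mean was not called (adjusted p = 0.0831). Cdkn2a, which encodes the cell cycle inhibitors p16Ink4a and p19Arf, was at 7.60, 8.33 and 7.42 against 6.59, 6.74 and 6.80 (2.10-fold rise, adjusted p = 0.0437). Its call was lost without deleted replicate 4 or 5 or any floxed array (adjusted p up to 0.124).

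Of 27 measured mitosis genes none was called by limma, and 1 was lower and 0 higher at an unadjusted p under 0.05 (median difference -0.07). The proliferation marker Mki67 was at 12.99, 13.01 and 13.10 in the deleted and 13.02, 13.15 and 13.10 in the floxed group. Of 30 subunits of oxidative phosphorylation none was called by limma, and 1 was lower and 1 higher at an unadjusted p under 0.05 (median difference -0.03). Over all genes 1760 were lower and 2169 higher at that unadjusted threshold.

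Genes chosen for bright signal in both groups, or for at least 3 probe sets all called, gave further changes. Bbx, an HMG-box gene, was at 12.17, 12.26 and 12.53 in the deleted and 9.65, 9.76 and 8.91 in the floxed group (7.36-fold rise), and all 5 of its probe sets rose. The transporter Abcc2 was at 11.49, 11.31 and 11.68 against 8.40, 8.10 and 8.60 (8.73-fold), and the ribonuclease Rnase2a at 11.73, 11.86 and 11.59 against 9.0, 8.34 and 8.45 (8.76-fold). The neuropeptide gene Gal was at 10.63, 11.94 and 11.38 against 9.21, 7.18 and 7.82 (9.50-fold), and Il1f9, a cytokine of the interleukin-1 family, at 12.09, 11.88 and 10.66 against 7.88, 8.0 and 9.33 (8.81-fold). Col19a1, a minor collagen gene, fell on all 3 of its probe sets, from 11.10, 11.75 and 11.31 to 6.42, 5.93 and 9.99 (15.3-fold). Deleted replicate 6 was its highest deleted array, and the call was lost without deleted replicate 4 or 5 or any floxed array (adjusted p up to 0.124). Gal lost its call with deleted replicate 6 and floxed replicate 5 both left out (adjusted p = 0.0661).

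Separate probe sets of a gene mostly moved the same way. Of the 630 falling genes 402 had at least 2 probe sets, and 132 of these had all of them called as lower, 99 had some and 171 only the representative. Of the 271 such genes among the 532 rising ones the counts were 95, 48 and 128. Among the other probe sets of the falling genes, 777 of 835 differed in the same direction, and of the 454 bright ones, with a mean of at least 8 in a group, 61.7% were called as lower. For rising genes 465 of 497 agreed in direction, and 63.6% of the 242 bright ones were called as higher. Since probe sets of a gene share the RNA and the arrays, they check the probes and not the biological replication. In 2 genes, Ctse and Rabgap1l, probe sets were called in opposite directions.

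Called genes also sat next to each other on chromosomes. Of 626 falling genes with a known position 123, or 19.6%, had a directly neighbouring measured gene that fell, against 6.64% of all 18032 positioned genes. Of 528 rising genes 82, or 15.5%, had a rising neighbour, against 5.73% of all. Leaving out both of deleted replicate 6 and floxed replicate 5, the shares were 14.6% against 2.67% and 7.91% against 1.94%. There were 10 falling and 4 rising runs of at least 3 genes. The longest was in the HoxA cluster on chromosome 6, from Hoxa4 through Hoxa5, Hoxa7, Hoxa9 and Hoxa10 to Hoxa11.

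The run on chromosome 9 held Mei4, Irak1bp1, Phip and Hmgn3. Irak1bp1 was at 6.41, 6.55 and 6.29 against 9.12, 9.31 and 8.36 (5.72-fold fall), and Phip, a bromodomain gene, fell 1.90-fold. Mei4 was below the top of the background range on all 6 arrays, and its difference of -1.32 was -0.34 with a pseudocount of 32. Phip lost its call without any deleted array or floxed replicate 4 or 5 (adjusted p up to 0.111). On chromosome 13 the neighbours Il6st and Il31ra were followed by Ddx4, a germ cell helicase, at 3.32, 2.89 and 2.84 against 4.41, 7.25 and 6.50. Ddx4 was below the top of the background range on all deleted arrays, its difference of -3.04 was -1.43 with a pseudocount of 32, and its call was lost without any deleted array or floxed replicate 5 or 6 (adjusted p up to 0.102).

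On chromosome 5 Smim14, Ube2k, Pds5a, N4bp2 and Rhoh fell next to each other. Rhoh, a GTPase of blood cells, was at 7.05, 6.61 and 5.88 against 8.29, 8.69 and 8.29 (3.76-fold), whereas the other 4 fell 1.40-fold to 1.91-fold. With averaged probe sets the differences of Smim14 and Ube2k were larger, at -0.90 in place of -0.51 and -0.75 in place of -0.48. Genes of chromosome 5 were shifted upward on floxed replicate 6, and the part of this in the run was not tested beyond leaving arrays out. Ube2k lost its call without any single one of the 6 arrays (adjusted p up to 0.111), Smim14 without any array but floxed replicate 4 (up to 0.099) and Pds5a without any but deleted replicate 6 (up to 0.0976). N4bp2 lost it without deleted replicate 4 or 5 (up to 0.0622).

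One run on chromosome 4 held Ptgr1, Dnajc25, Gng10 and Ugcg. Gng10, a G protein gamma subunit, was at 11.48, 11.32 and 11.04 against 12.54, 12.75 and 12.52 (2.50-fold). Ugcg, which makes glucosylceramide, fell 2.37-fold. Its call was lost with deleted replicate 6 and floxed replicate 5 both left out (adjusted p = 0.0558). Dnajc25 was at 7.38, 6.83 and 7.41 against 8.85, 10.24 and 8.65 (4.11-fold), and lost its call without deleted replicate 5 (adjusted p = 0.0548). The other run on chromosome 4 held Hp1bp3, Sh2d5 and Kif17. Sh2d5 was at 8.22, 8.19 and 9.47 against 10.88, 10.62 and 10.74 (4.35-fold). Hp1bp3 fell 1.49-fold and lost its call without deleted replicate 4 (adjusted p = 0.0568) and with averaged probe sets (adjusted p = 0.0879), and Kif17 fell 2.78-fold and lost it without deleted replicate 4 or 5 or any floxed array (adjusted p up to 0.0885).

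On chromosome 1 the Fc receptor genes Fcgr2b, Fcgr4 and Fcgr3, which bind IgG on myeloid cells, rose together. Fcgr4 was at 11.37, 11.43 and 11.23 against 9.68, 8.80 and 9.78 (3.8-fold, adjusted p = 0.00498). Fcgr3 rose 1.84-fold and Fcgr2b 1.54-fold. Fcgr3 lost its call without deleted replicate 4 or 5 or floxed replicate 5 (adjusted p up to 0.0711), and Fcgr2b without deleted replicate 4 or 6 or any floxed array (adjusted p up to 0.116). Only 1 of the 5 Fcgr2b probe sets rose, and their mean was not called (adjusted p = 0.0689). On chromosome 15 Arid2, a subunit of a SWI/SNF chromatin remodelling complex, was at 10.48, 10.23 and 10.16 against 12.29, 12.17 and 11.83 (3.49-fold fall, adjusted p = 0.000293). Its neighbours Scaf11 and the amino acid transporter Slc38a1 fell 1.46-fold and 2.83-fold, and Scaf11 lost its call without any array but floxed replicate 6 (adjusted p up to 0.11).

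**Figure D5:**
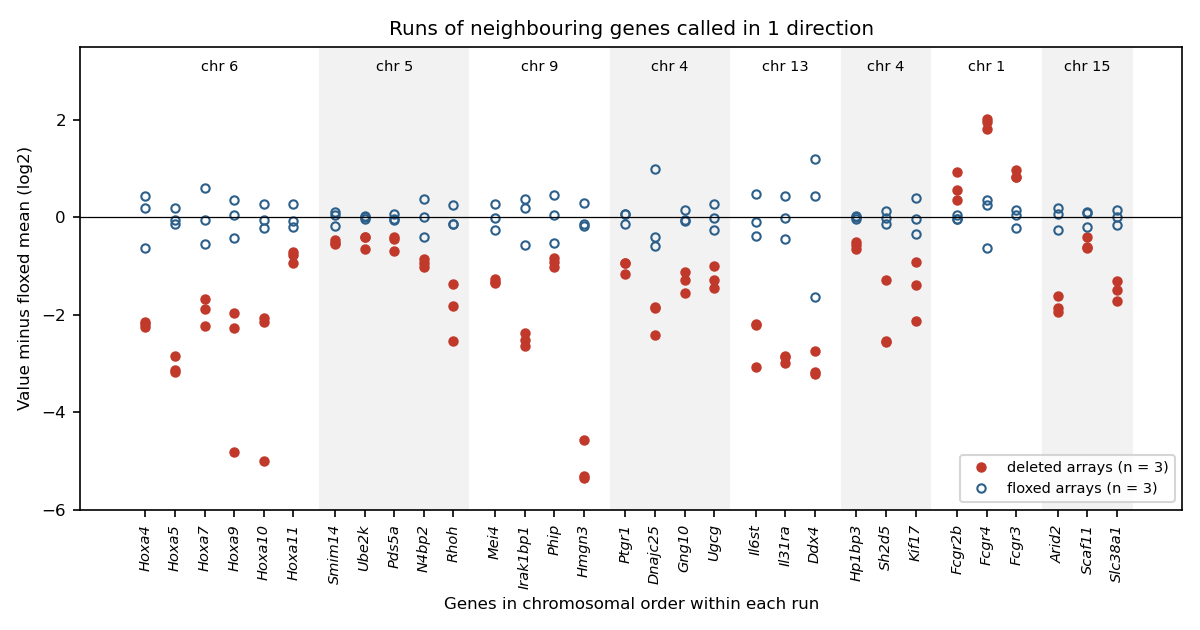
Value of each array minus the floxed mean (log2, vertical axis) for 8 runs of neighbouring genes called in 1 direction, in chromosomal order within each run; red points are deleted arrays and open blue points floxed arrays, n = 3 each. Deleted replicate 6 gives the lowest point of Hoxa9 and Hoxa10, and the run of Fc receptor genes on chromosome 1 is the one that rose.

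Some chromosomes were shifted as a whole on single arrays, and the part of this in the runs was not tested beyond leaving arrays out. Among genes with a mean of at least 8, those of chromosome 1 had a median shift of 0.29 on deleted replicate 6, against -0.06 and -0.03 on the other deleted arrays. Those of chromosome 15 were shifted by 0.24 on floxed replicate 4, those of chromosome 13 by 0.19 on floxed replicate 5 and those of chromosome 5 by 0.14 on floxed replicate 6. On floxed replicate 5 there were further shifts of 0.16 (X), 0.14 (chromosome 18), 0.13 (chromosome 3), -0.14 (chromosome 7), -0.13 (chromosome 17) and -0.13 (chromosome 19). On chromosome 15, 6.08% of genes fell, on chromosome 13 5.98% and on chromosome 5 4.72%, against 3.46% of all genes, and 4.64% rose on chromosome 1 and 4.25% on chromosome 7 against 2.92%. Without the array in question the share was 4.83% against 3.05% for chromosome 15, 2.14% against 1.80% for chromosome 13, 3.30% against 3.11% for chromosome 5, 2.93% against 2.01% for chromosome 1 and 1.91% against 1.40% for chromosome 7. The copy number of these leukemias is not known from these files.

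Markers of cell types were compared to see what else moved with the groups. Of 15 measured markers of leukemic myeloid cells 2 fell, Cd34 and Kit, and 1 rose, Fcgr3. The summed level of that list was 16.54 to 16.66 in the deleted and 16.11 to 16.49 in the floxed group. Cd34, a surface marker of progenitors, was at 6.93, 6.49 and 6.25 against 9.16, 11.06 and 10.14 (11.8-fold fall, adjusted p = 0.00378). Of 14 neutrophil markers 2 rose and none fell, with summed levels of 16.75 to 17.11 against 16.24 to 16.94. They were Lrg1, at 10.56, 10.47 and 10.71 against 8.65, 7.66 and 8.89 (4.53-fold), and the chemokine receptor Cxcr2, at 10.41, 10.92 and 10.03 against 8.65, 8.09 and 8.93 (3.72-fold). Of 15 monocyte and macrophage markers 2 fell and 2 rose, with summed levels of 13.71 to 14.24 against 14.01 to 14.52.

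The falling monocyte markers were Ly86, a partner of a Toll-like receptor relative, at 9.03, 9.37 and 8.67 against 11.86, 12.14 and 11.86 (7.63-fold), and the chemokine receptor Ccr2 (3.27-fold). The rising ones were F13a1, a coagulation factor subunit of macrophages, at 12.22, 12.15 and 12.69 against 11.16, 11.46 and 11.26 (2.08-fold), and the complement gene C1qc (1.79-fold). F13a1 lost its call with deleted replicate 6 and floxed replicate 5 both left out (adjusted p = 0.0661). Only 1 of the 4 Ccr2 probe sets fell, and their mean was not called (adjusted p = 0.0571). Ccr2 lost its call without deleted replicate 5 or 6 or any floxed array (adjusted p up to 0.131), C1qc without deleted replicate 4, deleted replicate 6, floxed replicate 4 or floxed replicate 5 (adjusted p up to 0.127). Their part in the other results was not tested.

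Markers of other blood cells are given next, beside the 6.39% of all genes that were called. Of 9 erythroid markers 1 fell, Rhd (2.15-fold), with summed levels of 11.37 to 11.61 in the deleted and 11.26 to 11.50 in the floxed group. Rhd lost its call with deleted replicate 6 and floxed replicate 5 both left out (adjusted p = 0.0552). Of 10 megakaryocyte markers Itgb3 fell and Cd9, a tetraspanin, rose, from 8.69, 7.82 and 8.53 to 9.77, 10.04 and 10.27 (3.21-fold), with summed levels of 11.10 to 11.34 against 10.99 to 11.27. Of 13 mast cell, basophil and eosinophil markers none was called by limma, and 1 was lower and 1 higher at an unadjusted p under 0.05. Their summed level was 12.60 to 12.82 against 12.13 to 12.29. Those ranges did not overlap, and neither did those of the leukemic myeloid cells above or the B cell markers below. Of all single genes 25.9% had groups that did not overlap. Of 12 B cell markers 1 fell, Cd79b (1.68-fold), with summed levels of 10.94 to 11.03 against 11.51 to 11.94.

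Of 16 T and NK cell markers 1 fell and 4 rose (median difference 0.45), with summed levels of 11.72 to 12.44 against 11.92 to 12.71. Cd5 fell 2.29-fold, and Gzma, a protease of killer cells, rose from 4.18, 4.49 and 4.81 to 6.26, 6.13 and 5.78 (2.96-fold). Klrd1 rose at least 1.53-fold against the top of the background range, Thy1 2.10-fold and Cd3e, named after its values were seen, 1.91-fold. The floxed values of Gzma and Klrd1 were at or near background, and with a pseudocount of 32 their differences were 0.86 in place of 1.56 and 0.53 in place of 1.13. Klrd1 lost its call without deleted replicate 4 or floxed replicate 5 (adjusted p up to 0.0597), and Thy1 without any single one of the 6 arrays (adjusted p up to 0.117). Of 13 stromal and endothelial markers 1 fell and 1 rose. Acta2, smooth muscle actin, rose from 7.36, 6.78 and 6.82 to 8.90, 10.71 and 9.65 (6.80-fold). Only 1 of the 3 Acta2 probe sets was called, their mean differed by 1.26 in place of 2.76, and the call was lost with deleted replicate 6 and floxed replicate 5 both left out (adjusted p = 0.0715). Pecam1, an adhesion molecule of endothelium, fell from 9.92, 10.67 and 10.84 to 7.80, 7.88 and 9.39 (4.36-fold). Pecam1 lost its call without deleted replicate 4, deleted replicate 5, floxed replicate 5 or floxed replicate 6 (adjusted p up to 0.108). Summed levels of that list were 10.88 to 11.66 against 11.29 to 11.60, and their part in the other results was not tested.

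Of the 135 named genes that were called, 76 kept the call when each of the 6 arrays was left out in turn, 59 kept it in every setting tried, and in none did the direction turn. The array whose removal ended the most of these calls was floxed replicate 5, with 47, and the one ending the fewest was floxed replicate 4, with 28.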

How the data were processed

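Expression was read from one-colour Affymetrix arrays, and per the labels' protocols 100 ng of total RNA was labelled. The deposited values are intensities on a linear scale that the authors made with RMA, per the submitters' processing notes; its software, version and probe definitions: not given in the sources used here. The method brings the arrays' distributions together, so a shift of most genes in 1 direction may not be seen. The deposited medians were still not equal, at 145.9 to 146.4 in the deleted and 151.5 to 152.9 in the floxed group. Here log2(value + 1) was taken, which understates changes of dim genes. Symbols came from the platform annotation. Probe sets with several symbols or none (10143 of 45101) were left out after the fit. Gene order came from RefSeq (GRCm38.p6).

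All 9 arrays, including 3 of Hoxa9-Meis1 leukemias, were fitted with limma 3.58.1 in R 4.3.3 (group means, lmFit, eBayes, two-sided, Benjamini-Hochberg over 45101 probe sets). In the fit the Hoxa9-Meis1 arrays served for the spread alone. They also entered the choice of the brightest probe set, the background range and the mean against which chromosome shifts were taken. Replicate numbers 4, 5 and 6 are the labels' own. Same-numbered arrays did not deviate together (correlations of 0.046, 0.053 and 0.032), and the labels do not say that the numbers mark pairs, so they were not used as pairs. The gene lists and members were chosen with earlier results of these data known. Named were the 12 largest falls and rises with a group mean of at least 8, called list members (up to 4 per list) and central genes, up to 8 genes with at least 3 probe sets all called, the 6 largest with both group means at least 8, and up to 8 runs of neighbours. In data simulated for this comparison over 45101 probe sets, 49% of 100 probe sets changed by 1 (log2) and 86% of 100 changed by 2 were called, with 14 false calls. Dim probe sets were not among those changed, and a smaller share was changed than the 6.16% called here. The simulated noise was normal and independent, without chromosome shifts. These figures therefore do not cover dim genes or such shifts. The number of arrays limits the precision. Alternatives changed the pseudocount, filter, samples, block, normalization, array weights, variance trend, arrays and probe summary.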

Additional observations from a re-analysis of the deposited data

How the results depend on the processing

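The number of called probe sets with a single symbol was 2225 (1301 fell, 924 rose). It was 1400 (810 and 590) with only the 6 arrays of the 2 groups compared, 953 (577 and 376) with the replicate block, 859 (512 and 347) with deleted replicate 6 and floxed replicate 5 both left out, and 1102 to 2201 (657 to 1250 fell, 445 to 951 rose) when each array was left out in turn. For genes the counts were 1162 (630 and 532) as reported, then 725 (393 and 332), 486 (286 and 200) and 427 (249 and 178) in the same order, and 582 to 1114 (328 to 566 fell, 254 to 548 rose) when each array was left out. Fewer arrays entered each of these fits. The brightest Mllt10 probe set had an adjusted p of 0.0677 with the 6 arrays alone and 0.0683 with the replicate block, both at a difference of -0.95, and differences of -1.19 to -0.83 when each array was left out. Of the 135 named called genes the replicate block ended 59 calls, the 6 arrays alone 40, and a pseudocount of 32 ended 19. Array weights ended 14, averaging each gene's probe sets 13, repeated quantile normalization 6 and the intensity trend 3. Among the genes they kept, leaving out chromosomes 1, 5 and 15 ended 3 calls and the filter on dim probe sets 0. Genes that these settings removed were not tested in them, such as Mei4 and Klrd1 under the filter. The rising share of called probe sets was 41.5% as reported, 44.2% after quantile normalization and 43.7% with a pseudocount of 32. The labels do not say whether the replicate numbers pair the leukemias, and same-numbered arrays did not deviate together, so the block is given here as an alternative. The block called 4 HoxA genes in place of 7. Dim genes near background and groups of 3 arrays limit what can be seen.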
